A study of Rattus norvegicus with 10 samples.

Results

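The genes described are Dusp1, Dusp4, Dusp5, Dusp6, Spry2, Spry4, Ier2 and Btg2, a set of MAP kinase feedback inhibitors and early response regulators, taken by symbol from tables of 17168 gene symbols. All 8 were found, and all 8 were among the 11791 genes left after a filter on low counts, so each of them was tested. Female TgF344-AD rats, a transgenic model of Alzheimer's disease, gave 10 RNA samples of the left hippocampus, all taken at an age of 11 months. The untreated group (n = 5) ate ordinary rodent chow. The RG2833 group (n = 5) ate chow with RG2833, an inhibitor of the histone deacetylases HDAC1 and HDAC3, in a dose of 750 mg per kg of feed, from 5 months of age and for 6 months. A food dye told the chows apart. Both groups carry the Tg-AD genotype, which as background knowledge means human transgenes driven by the mouse prion promoter, and animals of both were anaesthetised with ketamine and xylazine and perfused before the hippocampus was frozen. Non-transgenic animals and males were not analysed here. The comparison asks how long-term RG2833 feeding relates to transcript levels in this transgenic hippocampus.

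MAP kinase cascades pass a signal from a receptor through RAS, RAF and MEK to the kinase ERK, and related cascades end in JNK and p38. The DUSP proteins of this set remove the activating phosphates from these kinases, the Sprouty proteins damp signalling between receptor and RAS or RAF, and the genes of both families are themselves induced by the pathway, which closes a negative feedback loop. In hippocampal neurons ERK activity follows synaptic activity and neurotrophins, and many of its target genes are transcribed within minutes.

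Promoter sequences are shown first because several of these genes are textbook targets of transcription factors that the pathway activates. CREB binds the cyclic AMP response element, CRE (TGACGTCA), and serum response factor binds the CArG box. RefSeq promoter windows (GRCr8 build, the 250 bases before each start site, read on the gene's own strand) matched 7 of the 8 genes, with 2 start sites for Spry2. Dusp4 did not match. Both strands were searched. A CRE was found for 3 genes, Dusp1, Ier2 and Btg2, and in 1.59% of all 33469 windows of this length. The CArG box was found for Dusp5 alone among the 7, in a pair of adjacent matches, and in 1.5% of all windows. In the sequences below, capitals mark these matches.
Dusp5, chr1:262543524-262543773, plus strand: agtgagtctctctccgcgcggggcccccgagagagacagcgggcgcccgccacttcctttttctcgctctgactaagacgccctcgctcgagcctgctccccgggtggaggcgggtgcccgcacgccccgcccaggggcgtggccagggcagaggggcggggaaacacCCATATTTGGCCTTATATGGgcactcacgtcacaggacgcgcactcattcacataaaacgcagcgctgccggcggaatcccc
Dusp1, chr10:17184603-17184852, plus strand: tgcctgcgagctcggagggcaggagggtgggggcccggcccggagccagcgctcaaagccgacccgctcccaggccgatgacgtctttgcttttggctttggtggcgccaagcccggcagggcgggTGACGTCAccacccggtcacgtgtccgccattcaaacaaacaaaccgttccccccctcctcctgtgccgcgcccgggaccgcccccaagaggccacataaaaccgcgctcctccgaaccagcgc
Ier2, chr19:40399123-40399372, plus strand: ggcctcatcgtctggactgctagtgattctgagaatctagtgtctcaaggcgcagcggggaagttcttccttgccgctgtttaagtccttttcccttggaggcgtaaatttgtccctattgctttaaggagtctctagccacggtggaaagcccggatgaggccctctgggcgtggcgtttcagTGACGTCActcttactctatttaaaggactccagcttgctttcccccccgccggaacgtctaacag
Btg2, chr13:48087691-48087940, minus strand: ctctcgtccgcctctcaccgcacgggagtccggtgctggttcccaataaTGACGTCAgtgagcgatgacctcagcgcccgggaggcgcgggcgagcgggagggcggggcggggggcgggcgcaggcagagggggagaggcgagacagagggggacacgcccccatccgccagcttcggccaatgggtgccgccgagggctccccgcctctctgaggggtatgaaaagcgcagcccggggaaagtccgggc

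The CArG boxes of Dusp5 run from 82 to 63 bases before the start site. The CRE lies 124 to 117 bases before the start of Dusp1, 66 to 59 bases before that of Ier2 and 201 to 194 bases before that of Btg2. The shorter CRE core TGACG, which also lies inside every CRE match, was found for 5 of the 7 genes (Dusp1, Dusp5, Spry2, Ier2 and Btg2) and in 18.2% of all windows. The EGR motif GCGNGGGCG was found for Dusp5, Spry2 and Btg2 and in 4.29% of all windows. The AP-1 motif TGANTCA (6.34% of all windows) and the ETS motif CCGGAAG (7.27%) were found for 0 of the 7. Each match is a run of letters and not a measured binding site. Binding and chromatin data were not analysed here.

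**Figure D1:**
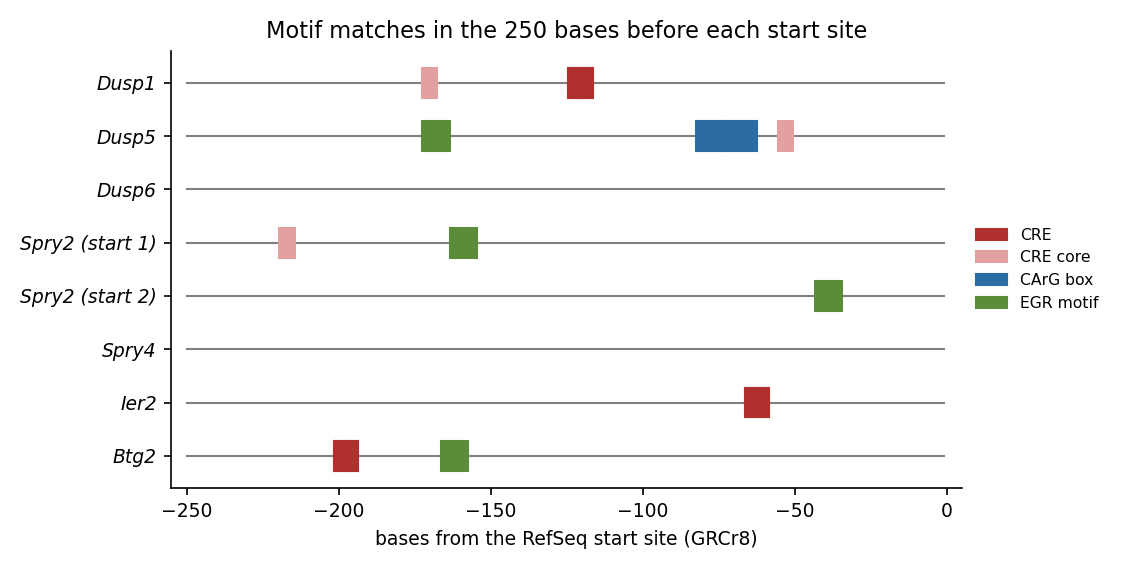
Motif matches (coloured boxes) in the 250 bases before each RefSeq start site, plotted as distance in bases from the start, for the 7 genes with a promoter entry. A CRE core inside a full CRE is hidden by it. CRE matches appear for Dusp1, Ier2 and Btg2, and the adjacent CArG boxes only for Dusp5.

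Total counts per library were between 8764258 and 11131421 in the untreated group and between 9535072 and 11311660 in the RG2833 group. Ribosomal RNA loci took 2.70% to 5.36% of the counts of untreated libraries and 1.13% to 1.96% of those of RG2833 libraries, so the groups did not overlap in this share. The labels name no library or sequencing batch. All 5 listed excitatory neuron markers and all 6 listed hippocampal neuron markers were detected. In untreated replicate 1 the choroid plexus markers stood out, with a summed level of 2446 CPM (counts scaled to a common library size by the TMM method, which takes most genes as unchanged) against 4.48 to 44.2 CPM in the other 9 animals. Results that rest on single libraries are given with and without them.

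None of the 8 genes passed the test of treatment: 0 were called by edgeR's quasi-likelihood test at 0.05 after Benjamini-Hochberg adjustment over all genes tested, where 5.08% of all tested genes were called. At an unadjusted p under 0.05 the count was 3 of 8, Dusp4, Dusp5 and Dusp6, each with the higher mean in RG2833 animals. Over all tested genes 11.8% had an unadjusted p under 0.05 in that direction and 24.5% in either. At an adjusted p under 0.1 edgeR called Dusp4 and Dusp6, both higher (5.92% of all genes higher, 12.4% in either direction). DESeq2's Wald test called 1 of the 8, Dusp6, as higher (5.21% of all genes higher, 11% in either direction). The count was 0 with limma-voom (4.66% of all genes called), with limma trend on the deposited signal at a pseudocount of 1 (5.16%) or 0.1 (4.89%), with library totals only (5.05%), size factors of DESeq2 (5.11%), every gene with a count (3.21%), a mean count of at least 50 (6.28%) and the replicate block (1.53%). Leaving out 1 animal gave 2 of 8 without untreated replicate 4 (13.1% of all genes called), 1 of 8 without untreated replicate 5 (7.61%) and 0 of 8 without untreated replicates 1, 2 or 3 (1.63%, 2.37% and 0.954%) or RG2833 replicates 1 to 5 (1.1%, 0.945%, 0.97%, 1.8% and 0.826%). The mean was higher in RG2833 animals for 7 of the 8 genes, against 49.4% of all tested genes, and the median log2 fold change was 0.20 over the 8 and -0.004 over all tested genes. Non-overlap of the groups was seen for 1 of 8, Dusp5, with RG2833 higher, against 3.8% of all tested genes in that direction and 7.27% in either.

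**Figure D2:**
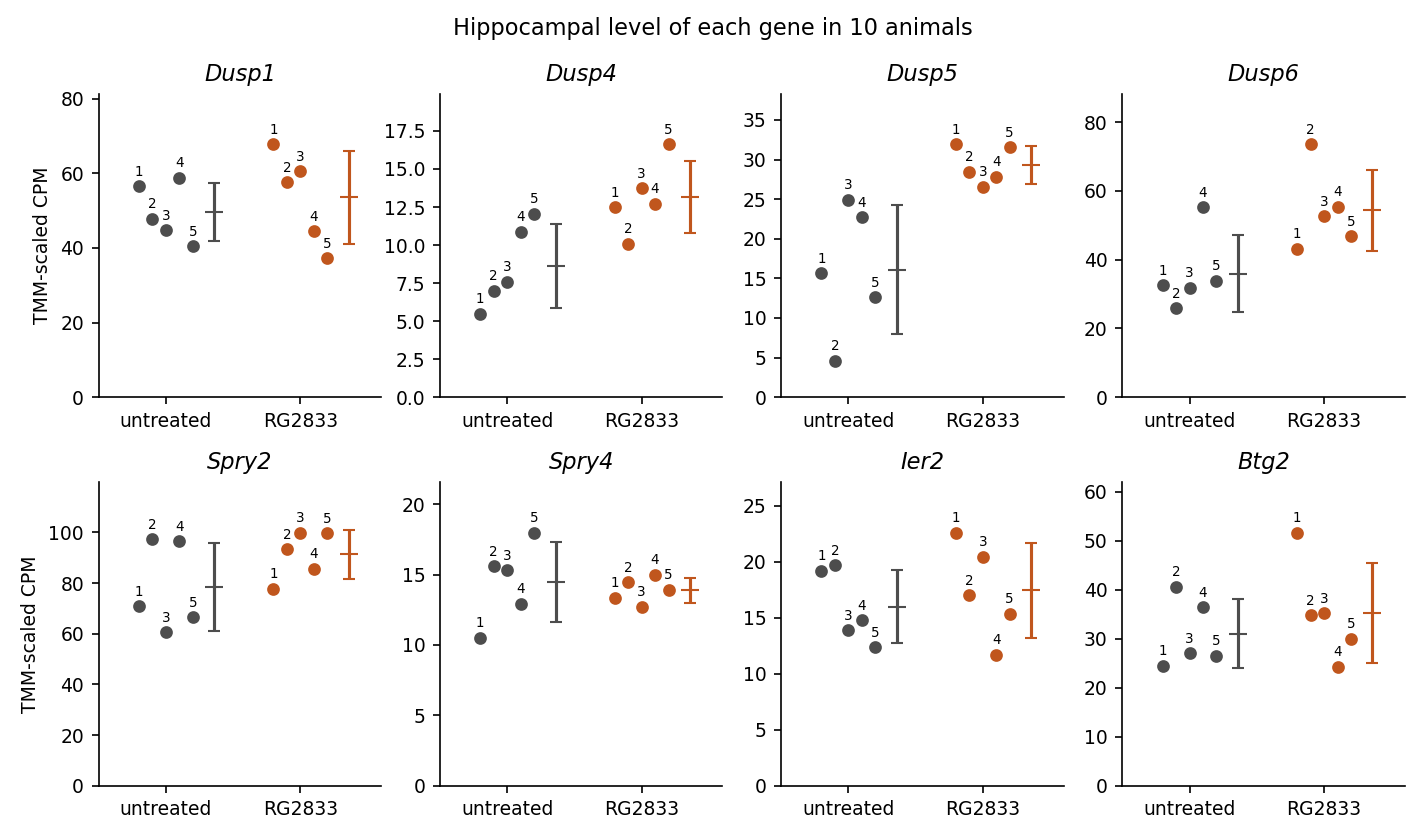
TMM-scaled CPM of the 8 genes in each of 10 animals (points, numbered by replicate), with the mean and SD of each group (n = 5) at its right. For Dusp5 all RG2833 animals (26.6 to 32.0 CPM) lie above all untreated animals (4.59 to 24.9 CPM), and for the other 7 genes the groups overlap.

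Dusp5 encodes a nuclear phosphatase specific for ERK. Its level was 15.7, 4.59, 24.9, 22.7 and 12.6 CPM in untreated replicates 1 to 5. It was 32.0, 28.5, 26.6, 27.8 and 31.6 CPM in RG2833 replicates 1 to 5. Every RG2833 animal was above every untreated animal, and untreated replicate 2 was far below the rest. That lowest value rests on 46 counts, with an exact Poisson 95% interval of 3.36 to 6.13 CPM, which covers counting error only. The coefficient of variation was 50.7% among untreated animals and 8.13% among RG2833 animals, and the difference between these was not tested. Without untreated replicate 2 the untreated value was 30.6%. The log2 fold change was 0.86 ± 0.31 (SE; 95% interval 0.19 to 1.52), from 16.1 ± 8.16 to 29.3 ± 2.38 CPM (SD, n = 5), and did not pass (edgeR adjusted p = 0.110). On log2 CPM a two-sided exact permutation test gave p = 0.00794, the smallest that 5 animals against 5 allow, for this single gene and without adjustment. Without untreated replicate 2 the log2 fold change was 0.62 (edgeR adjusted p = 0.0821), and over the 10 fits with 1 animal left out the adjusted p ran from 0.0532 to 0.208.

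Dusp6 encodes the cytoplasmic ERK phosphatase, a common readout of ERK pathway activity. Its level was 32.6, 25.9, 31.9, 55.2 and 33.8 CPM in untreated replicates 1 to 5. It was 43.2, 73.6, 52.6, 55.3 and 46.8 CPM in RG2833 replicates 1 to 5. The groups overlapped through untreated replicate 4 alone, which lay above 3 of the 5 RG2833 animals, while the other 4 untreated animals were below every RG2833 animal. The means were 35.9 ± 11.2 and 54.3 ± 11.8 CPM (SD, n = 5), which differ by 0.60 ± 0.19 on the log2 scale (SE; 95% interval 0.18 to 1.01; edgeR adjusted p = 0.0862). Without untreated replicate 4 the log2 fold change was 0.81 and passed (edgeR adjusted p = 0.00561). Over the 10 fits that left out 1 animal, only that fit called Dusp6, the adjusted p ran from 0.00561 to 0.183, and the lowest log2 fold change was 0.46, without RG2833 replicate 2. DESeq2's Wald test with all animals gave an adjusted p of 0.0340. Once the ribosomal RNA share was a covariate, the edgeR adjusted p was 1.00.

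Dusp4 encodes a nuclear phosphatase of ERK and JNK. Its level was 5.49, 6.99, 7.60, 10.9 and 12.1 CPM in untreated replicates 1 to 5. It was 12.5, 10.1, 13.7, 12.7 and 16.6 CPM in RG2833 replicates 1 to 5. Of the RG2833 animals 4 were above every untreated animal, and RG2833 replicate 2 was below untreated replicates 4 and 5. The means were 8.61 ± 2.76 and 13.1 ± 2.37 CPM (SD, n = 5), which differ by 0.60 ± 0.21 on the log2 scale (SE; 95% interval 0.16 to 1.05; edgeR adjusted p = 0.0973). The fold change passed without untreated replicate 4 (0.71, edgeR adjusted p = 0.0484) and without untreated replicate 5 (0.75, edgeR adjusted p = 0.0425), and the highest adjusted p of the 10 such fits was 0.224.

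Dusp1 encodes an inducible nuclear phosphatase of p38, JNK and ERK that glucocorticoids and stress also induce. It ranged from 40.5 to 58.8 CPM in untreated animals (median 47.8) and from 37.2 to 67.8 CPM in RG2833 animals (median 57.5). Both the lowest and the highest of the 10 values belonged to RG2833 animals. The means of 49.7 ± 7.78 and 53.5 ± 12.4 CPM (SD, n = 5) differ by 0.11 ± 0.16 on the log2 scale (SE; adjusted p = 0.707 by edgeR). The 95% interval of -0.23 to 0.45 holds differences of either sign. With 1 animal left out, the estimate ran from 0.009 (without RG2833 replicate 1) to 0.21 (without RG2833 replicate 5). It does not reach the estimates of 0.86, 0.60 and 0.60 for Dusp5, Dusp4 and Dusp6, but the difference between genes was not tested.

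Spry2 and Spry4 encode Sprouty proteins, inhibitors of receptor tyrosine kinase signalling. Spry2 ranged from 60.6 to 97.4 CPM in untreated animals (median 70.8) and from 77.8 to 99.9 CPM in RG2833 animals (median 93.3). Untreated replicates 2 and 4, at 97.4 and 96.5 CPM, lay among the higher RG2833 values, and the other 3 untreated animals were below all of them. The log2 fold change was 0.22 ± 0.14 (SE; 95% interval -0.07 to 0.51; edgeR adjusted p = 0.335), and with 1 animal left out it ran from 0.13 (without untreated replicate 3) to 0.31 (without untreated replicate 2). Spry4 ranged from 10.5 to 18.0 CPM in untreated animals (median 15.3) and from 12.7 to 15 CPM in RG2833 animals (median 13.9), so every RG2833 value lay inside the untreated range. Its log2 fold change of -0.06 ± 0.13 (SE; 95% interval -0.35 to 0.23; edgeR adjusted p = 0.818) was the only negative one of the 8, and it changed sign without untreated replicate 5 (0.03) and with the ribosomal share as covariate (0.18).

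Ier2 encodes a nuclear early response protein, and Btg2 an antiproliferative protein that recruits the CCR4-NOT deadenylase to messenger RNA. Ier2 ranged from 12.4 to 19.7 CPM in untreated animals (median 14.8) and from 11.7 to 22.6 CPM in RG2833 animals (median 17.0). Btg2 ranged from 24.5 to 40.7 CPM in untreated animals (median 27.1) and from 24.3 to 51.7 CPM in RG2833 animals (median 34.8). For both genes the lowest of the 10 values was RG2833 replicate 4 and the highest was RG2833 replicate 1. The log2 fold change was 0.13 ± 0.18 for Ier2 (SE; 95% interval -0.27 to 0.52; edgeR adjusted p = 0.704) and 0.18 ± 0.19 for Btg2 (95% interval -0.24 to 0.60; edgeR adjusted p = 0.598). With 1 animal left out, the estimate for Ier2 ran from 0.02 (without RG2833 replicate 1) to 0.24 (without RG2833 replicate 4), and that for Btg2 from 0.002 (without RG2833 replicate 1) to 0.30 (without untreated replicate 2).

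The 3 genes with a full CRE before the start site, Dusp1, Ier2 and Btg2, thus had log2 fold changes of 0.11, 0.13 and 0.18. Dusp5, with the CArG boxes but also a CRE core and an EGR match, had one of 0.86. Spry2, with a CRE core and EGR matches, had 0.22. Dusp6 and Spry4, for which none of the 6 motifs was matched, had 0.60 and -0.06. These values stand side by side as a description of 7 genes.

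**Figure D3:**
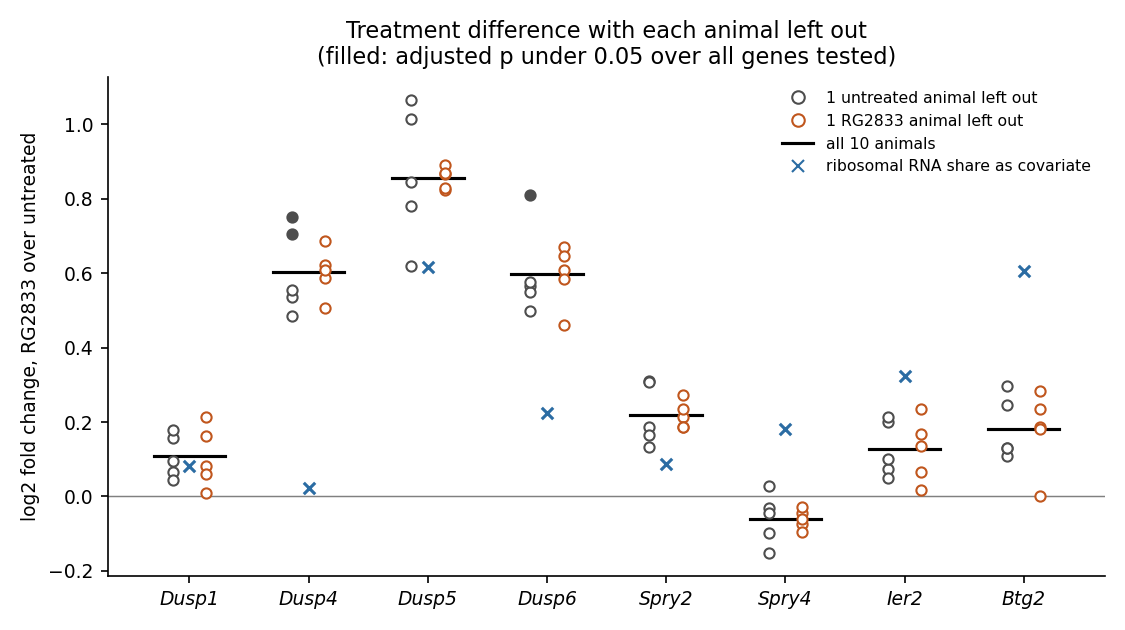
Log2 fold change of each gene, RG2833 over untreated (edgeR), with all 10 animals (bar), with 1 untreated or 1 RG2833 animal left out (circles, filled where the adjusted p was under 0.05) and with the log2 ribosomal share as covariate (cross). Filled circles occur for Dusp4 without untreated replicates 4 and 5 and for Dusp6 without untreated replicate 4.

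The ribosomal RNA share and the marker levels stand beside these differences. With the log2 ribosomal share as covariate, the log2 fold change was 0.02 ± 0.38 for Dusp4, 0.22 ± 0.35 for Dusp6 and 0.62 ± 0.61 for Dusp5 (SE), while those of Ier2 and Btg2 were 0.32 ± 0.36 and 0.61 ± 0.35 (SE). In that fit 2 genes were called in the whole table (0.0170%). Each SE was larger than without the covariate, and since the groups did not overlap in the share, the share and the treatment cannot be told apart. The summed level of the excitatory neuron markers (5 of 5 tested, 0 called, 5 of 5 with the higher mean in RG2833 animals) was 1452 to 2353 CPM in untreated and 2476 to 2905 CPM in RG2833 animals, without overlap. Untreated replicate 2, the animal with the lowest Dusp5 value, had the 1452 CPM. The summed hippocampal neuron markers (6 of 6 tested, 0 called, 4 of 6 with the higher mean in RG2833 animals) ran from 295 to 1110 CPM and from 539 to 1162 CPM, and untreated replicate 4, the animal with the high Dusp6 value, had the 1110 CPM. A single marker, Wfs1, carried that value, at 588 CPM in that animal and 63.9 to 88.0 CPM in the rest of its group. In RG2833 replicates 1 to 5 Wfs1 was 108, 605, 542, 384 and 182 CPM. All of these lay above the 88.0 CPM, so its groups overlapped through untreated replicate 4 alone. Without Wfs1 the sum was 207 CPM in untreated replicate 1 and 496 to 576 CPM in the rest of its group. It was 423 to 557 CPM in RG2833 animals. Untreated replicate 4, at 522 CPM, did not stand out. Untreated replicate 1 also had the 295 CPM of the full list. The inhibitory neuron markers had the higher mean in RG2833 animals for 1 of 6 (411 to 766 CPM and 428 to 581 CPM). The oligodendrocyte markers had the higher mean in RG2833 animals for 5 of 5 (sums of 5334 to 16513 CPM in untreated and 8431 to 11405 CPM in RG2833 animals). The endothelial markers had it for 0 of 5 (211 to 319 CPM and 198 to 224 CPM), and the pericyte and smooth muscle markers for 0 of 4 (87.9 to 123 CPM and 78.9 to 102 CPM). RG2833 animals had the higher mean for 3 of 5 astrocyte markers (3097 to 4893 CPM and 3460 to 4725 CPM). For oligodendrocyte precursors it was 1 of 3 (161 to 193 CPM and 139 to 184 CPM). For microglia it was 1 of 5 (226 to 326 CPM and 206 to 272 CPM), and for meningeal fibroblasts 2 of 4 (23.8 to 66.8 CPM and 19.5 to 33.3 CPM). The sums of the inhibitory neuron, oligodendrocyte, endothelial, pericyte, astrocyte, oligodendrocyte precursor, microglia and meningeal fibroblast lists overlapped between the groups. No marker of the 3 neuronal lists was at 0 in every animal, and of all tested markers of the 13 lists 1 was called, the microglial Aif1 (lower, edgeR adjusted p = 0.0496). The part of the marker levels in the results was not tested. In bulk tissue, fewer cells of a type and less RNA per cell cannot be told apart. Without untreated replicate 1, the library with choroid plexus markers, the log2 fold changes were 0.48 for Dusp4, 0.85 for Dusp5 and 0.57 for Dusp6.

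The other genes of the pathway were read from 8 lists with 82 of 84 listed genes in the table, all of them tested. In RG2833 animals 10 of them rose and 0 fell, where 2.41% of all tested genes were called higher and 2.67% lower. Of these 10, 8 were immediate-early genes, and 2 of the 71 tested genes of the other 7 lists rose, a share near that of all genes. The count of lower calls was 1 with library totals only, with size factors of DESeq2, with its Wald test, at an adjusted p under 0.1 and without untreated replicate 5, and it was 3 without untreated replicate 4 (20 higher). The total was 3 to 23 when 1 animal was left out and 0 with the ribosomal share as covariate. Among the 6 other MAP kinase phosphatases 1 was called, all 6 had the higher mean in RG2833 animals, and the median log2 fold change was 0.39. The called gene was Dusp7, a cytoplasmic ERK phosphatase closely related to Dusp6. Dusp7 was 111, 121, 108, 142 and 93.9 CPM in untreated replicates 1 to 5, and 156, 158, 176, 161 and 172 CPM in RG2833 replicates 1 to 5. The groups did not overlap, and Dusp7 rose by a log2 fold change of 0.52 ± 0.10 (SE; 95% interval 0.30 to 0.73; edgeR adjusted p = 0.0183). The call was kept in 7 of the 10 fits that left out 1 animal and was lost without untreated replicate 3, RG2833 replicate 3 or RG2833 replicate 5 (highest edgeR adjusted p 0.0571). It was also lost with the replicate block (0.53, edgeR adjusted p = 0.0518) and with the ribosomal share as covariate (0.36, edgeR adjusted p = 1.00).

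Of the 5 other Sprouty and Spred genes 0 were called by edgeR (2 at an unadjusted p under 0.05), with 3 higher and 2 lower in mean. For this list and the next ones, 24.5% of all tested genes had such a p in either direction. The largest estimate was that of Spred3, which encodes a Sprouty-related inhibitor, at 0.59 ± 0.17 (log2, SE; edgeR adjusted p = 0.0599). Spry3, a Sprouty gene named after its values were seen, had the same estimate to 2 decimals, 0.59 ± 0.16 (log2, SE; edgeR adjusted p = 0.0510), and its groups did not overlap (3.55 to 5.47 CPM in untreated and 6.00 to 8.49 CPM in RG2833 animals). Of the 7 other Ier and Btg/Tob genes 0 were called by edgeR (3 at an unadjusted p under 0.05), and Ier5 had the largest estimate, 0.71 ± 0.22 (log2, SE; edgeR adjusted p = 0.0733). Ier5 ranged from 24.7 to 66.6 CPM in untreated and from 54.2 to 82.7 CPM in RG2833 animals, and the 66.6 CPM were again untreated replicate 4. Among 9 other ERK output genes 0 were called by edgeR (2 at an unadjusted p under 0.05, 1 in each direction), the median log2 fold change was 0.03, and the largest estimate was negative, -0.57 ± 0.20 (SE; edgeR adjusted p = 0.113) for the ETS transcription factor gene Etv1.

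In the RAS-RAF-MEK-ERK core 1 of 20 tested genes was called (7 at an unadjusted p under 0.05, 6 higher and 1 lower, where 24.5% of all tested genes had such a p), Sos2, which encodes an exchange factor that activates RAS. Sos2 rose from 46.7 ± 2.52 to 56.8 ± 2.67 CPM (SD, n = 5) without overlap of the groups, by 0.28 ± 0.07 on the log2 scale (SE; adjusted p = 0.0339 by edgeR). That call was kept in 2 of the 10 fits that left out 1 animal, was lost in the other 8 (log2 fold change 0.26 to 0.32 over the 10), and was also lost with the replicate block (0.28, edgeR adjusted p = 0.0897) and with the ribosomal share as covariate (0.22, edgeR adjusted p = 1.00). Rasgrp1, another RAS exchange factor gene, had the largest estimate of this list, 0.85 ± 0.28 (log2, SE; edgeR adjusted p = 0.0876), and untreated replicate 4, at 368 CPM, was above the 102 to 227 CPM of the rest of its group. Of the 12 JNK and p38 cascade genes 0 were called by edgeR (4 at an unadjusted p under 0.05, 2 in each direction), and the p38 delta gene Mapk13 had an estimate of -1.07 ± 0.29 (log2, SE; edgeR adjusted p = 0.0501). Its groups did not overlap, with 1.86 to 4.58 CPM in untreated and 0.828 to 1.65 CPM in RG2833 animals. Of the 12 ERK-activated kinases and transcription factors 0 were called by edgeR (5 at an unadjusted p under 0.05, 3 higher and 2 lower), and Mknk1, a kinase gene downstream of ERK and p38, had the largest estimate at 0.43 ± 0.13 (log2, SE; edgeR adjusted p = 0.0759).

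Immediate-early transcription factor and effector genes share inducers with the 8 genes, and 8 of 11 were called higher (median log2 fold change 0.95). Egr1 was 34.0 to 89.6 CPM in untreated and 103 to 137 CPM in RG2833 animals, with the 89.6 CPM in untreated replicate 4, while Fos had the largest estimate, 1.45 ± 0.33 (log2, SE; edgeR adjusted p = 0.0334). Egr4 (1.02), Arc (1.05) and Fosb (0.82), by log2 fold change, rose as well. Egr1, Egr4 and Arc were called in all 10 fits that left out 1 animal and with the replicate block. Fos and Fosb were called in 4 of the 10 and not with the block (edgeR adjusted p = 0.0897 and 0.0560). The 3 other called genes, Junb, Egr3 and Nr4a1, were called in 3, 2 and 2 of the 10 and with the block. With the ribosomal share as covariate 0 of the 11 were called, and the log2 fold changes moved in both directions. They were 1.07 for Arc, 1.31 for Fosb, 1.28 for Fos and 0.78 for Egr4 in that fit. The log2 fold change of Egr1 was 0.60 with the covariate and 1.18 without it, and that of Egr3 0.28 and 0.95. For Junb it was 0.81 with the covariate and 0.57 without it, and for Nr4a1 1.14 and 0.90. Earlier results of these data had already shown this list to be higher.

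**Figure D4:**
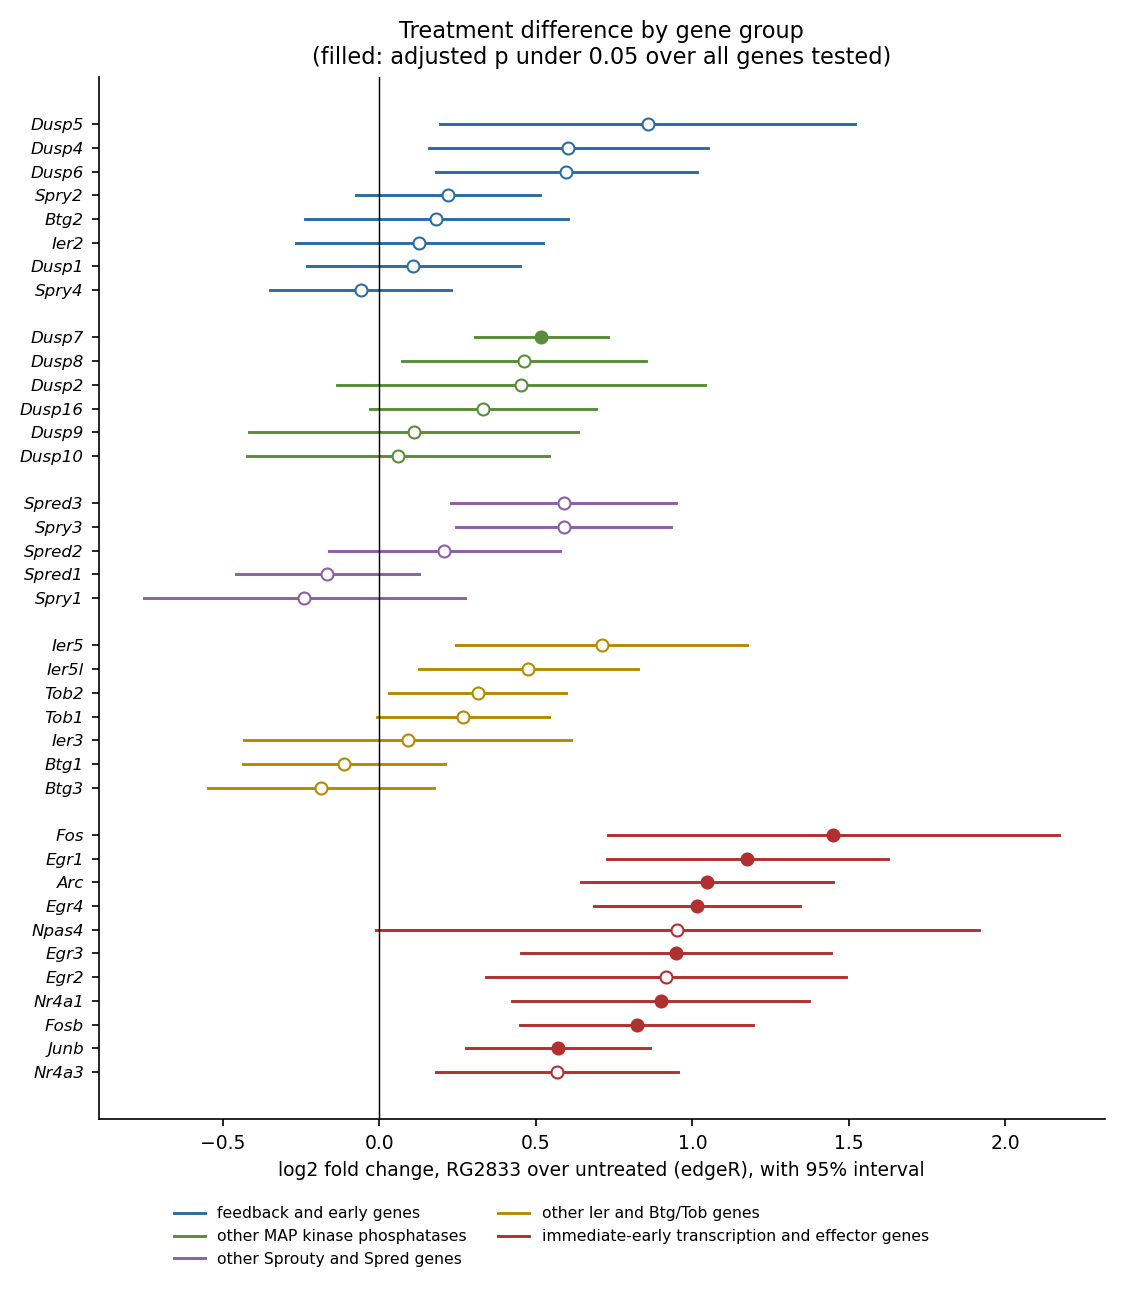
Log2 fold change, RG2833 over untreated, with its 95% interval (edgeR), for the 8 feedback and early genes and for 4 related lists, ordered by size within each list. Filled circles mark an adjusted p under 0.05 over all genes tested, which 0 of the 8 genes, Dusp7 and 8 of the 11 immediate-early genes reach.

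Whether the 8 genes varied together between animals of the same group was examined on log2 CPM centred within each group, over 10 animals. Of the 28 pairs 0 passed after Benjamini-Hochberg adjustment (exact permutation test exchanging values within groups, two-sided), and 3 had an unadjusted p under 0.05. The highest correlations joined Dusp1 with Ier2 (Pearson r = 0.693, exact permutation p = 0.0488, adjusted 0.456; Spearman rho = 0.709, p = 0.0402) and Ier2 with Btg2 (r = 0.690, exact permutation p = 0.0452, adjusted 0.456; rho = 0.697, p = 0.0432). Without the 2 animals farthest from the median of the first gene, r was 0.727 and 0.373, so the second rests on those animals. Dusp1 and Spry4 varied in opposite directions (r = -0.584, exact permutation p = 0.0254, adjusted 0.456; rho = -0.673, p = 0.0248; r = -0.671 without 2 animals). Dusp4, Dusp5 and Dusp6, the 3 genes with an unadjusted p under 0.05 for treatment, had r between 0.178 and 0.486 among themselves, with exact permutation p from 0.298 to 0.743 (adjusted 0.844 for each pair) and rho from -0.152 to 0.249 (p from 0.547 to 0.769). Without the 2 farthest animals these r were between 0.221 and 0.456. For Dusp4 with Dusp6 and for Dusp5 with Dusp6 the sign differed between the groups, positive in untreated and negative in RG2833 animals, with 5 animals in each.

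Relations with summed marker levels, chosen after the values were seen, were computed in the same way for the 8 genes and 13 marker lists. Only the 2 animals left out were picked otherwise, as those farthest from the median of the marker sum. Of the 104 relations 0 passed after adjustment (smallest adjusted p = 0.202, exact permutation tests), and the 9 with an unadjusted p under 0.05 are given as a description. Dusp5 correlated positively with the excitatory neuron markers (r = 0.921, exact permutation p = 0.00389, adjusted 0.202; rho = 0.770, p = 0.00708). Without the 2 animals farthest from that median r was 0.529, so much of the value over 10 animals rests on them. Within the groups r was 0.950 in untreated and 0.967 in RG2833 animals, with 5 animals in each. Spry4 correlated positively with the oligodendrocyte precursor markers (r = 0.690, exact permutation p = 0.00271, adjusted 0.202; rho = 0.758, p = 0.0105; r = 0.827 without 2 animals). Ier2 correlated negatively with the same markers (r = -0.846, exact permutation p = 0.00681, adjusted 0.236; rho = -0.855, p = 0.00701; r = -0.668 without 2 animals). Spry2 correlated positively with the astrocyte markers (r = 0.851, exact permutation p = 0.0191, adjusted 0.284; rho = 0.842, p = 0.0186; r = 0.772 without 2 animals) and Dusp6 with the hippocampal neuron markers (r = 0.730, exact permutation p = 0.0424, adjusted 0.490; rho = 0.830, p = 0.0112; r = 0.832 without 2 animals). The value for Dusp6 rests on Wfs1, since without that marker it was r = 0.262 (exact permutation p = 0.430, adjusted 0.972; rho = 0.333, p = 0.333; r = 0.554 without 2 animals). Spry4 went the other way, with r = 0.367 for the full list. Without Wfs1 it was r = 0.829 (exact permutation p = 0.01625, adjusted 0.248, rho = 0.576, p = 0.104, and r = 0.531 without 2 animals). Dusp1 correlated negatively with the oligodendrocyte precursor markers (r = -0.796, exact permutation p = 0.0189, adjusted 0.284; rho = -0.842, p = 0.00799; r = -0.779 without 2 animals), and Spry2 positively with the summed blood markers Hbb and Alas2 (r = 0.660, exact permutation p = 0.0174, adjusted 0.284; rho = 0.697, p = 0.0226; r = 0.647 without 2 animals). The blood sums were low, at 1.06 to 7.79 CPM in untreated and 0.191 to 4.55 CPM in RG2833 animals. Only 1 of these 2 genes passed the filter on low counts. Negative values of Spry4 with the oligodendrocyte markers (r = -0.897, exact permutation p = 0.0119, adjusted 0.284; rho = -0.806, p = 0.0562) and with the thalamus markers (r = -0.659, exact permutation p = 0.0403, adjusted 0.490; rho = -0.285, p = 0.468) rest on 2 animals each, since r was -0.309 and 0.0673 without them.

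**Figure D5:**
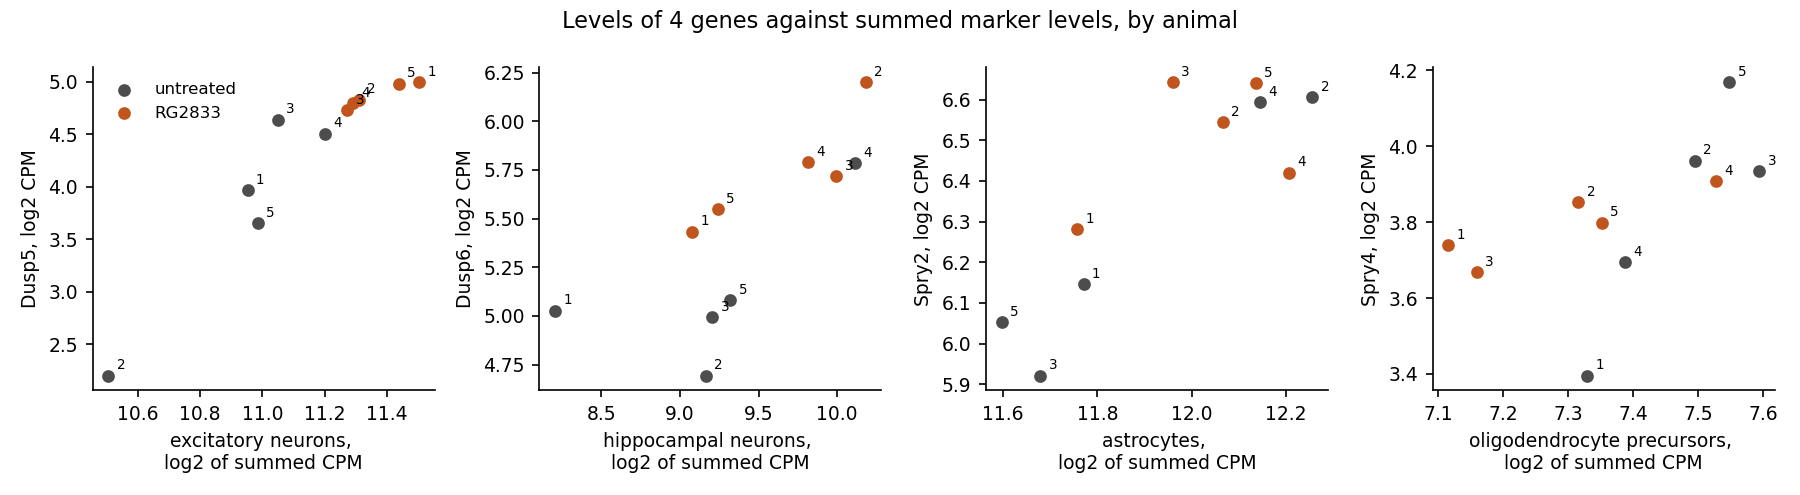
Log2 CPM of Dusp5, Dusp6, Spry2 and Spry4 (vertical axes) against the log2 of the summed CPM of a marker list (horizontal axes) in 10 animals, numbered by replicate and coloured by group. Untreated replicate 2 is lowest in both Dusp5 (4.59 CPM) and excitatory neuron markers (1452 CPM), and untreated replicate 4 lies among the RG2833 animals for Dusp6.

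Against the 11 immediate-early genes 0 of 88 relations passed after adjustment (smallest adjusted p = 0.244, exact permutation tests), and 11 had an unadjusted p under 0.05. Here the 2 animals left out were those farthest from the median of the immediate-early gene. All 11 were positive except Ier2 with Nr4a3 (r = -0.677, exact permutation p = 0.0385, adjusted 0.346; rho = -0.697, p = 0.0424; r = -0.540 without 2 animals). The 2 with the smallest adjusted p, 0.244, joined Ier2 with Fos (r = 0.848, exact permutation p = 0.00472; rho = 0.770, p = 0.0162; r = 0.821 without 2 animals) and Btg2 with Npas4 (r = 0.690, exact permutation p = 0.00556; rho = 0.782, p = 0.00243; r = 0.875 without 2 animals).

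The genes most like each of the 8 across the 10 animals were named by the highest Pearson r of centred log2 CPM among 11204 other genes. They are a description with no test, since the highest of so many values is picked. For Dusp1 they were RGD1304587 (r = 0.971, rho = 0.976) and Fam3c (r = 0.922, rho = 0.915). For Dusp4 the closest was Ap1g1 (r = 0.974, rho = 0.903). For Dusp5 they were Habp4 (r = 0.978, rho = 0.770) and Raver2 (r = 0.971, rho = 0.709), both of them called higher in RG2833 animals (log2 fold changes 0.41 and 0.56, edgeR adjusted p = 0.0328 and 0.0445). Plk2, an activity-regulated kinase gene of neurons, was closest to Dusp6 (r = 0.959, rho = 0.903), followed by Nck2 (r = 0.938, rho = 0.721). For Spry2 they were Extl1 (r = 0.939, rho = 0.903) and Tgds (r = 0.938, rho = 0.952). For Spry4 they were Rfc1 (r = 0.954, rho = 0.939) and Gas7 (r = 0.942, rho = 0.794). LOC102550396 (r = 0.966, rho = 0.976) and Scamp4 (r = 0.952, rho = 0.903) were closest to Ier2, and Prcc (r = 0.910, rho = 0.830) and Rilpl1 (r = 0.900, rho = 0.758) to Btg2. The r was also taken without the 2 animals farthest from the median of the gene from the set of 8. For the genes named here as most like them it ran from 0.674 (Gas7) to 0.949 (LOC102550396).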

How the data were processed

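The deposited tables give 1 column per animal for the same gene symbols: estimated counts from RSEM (expected counts, deposited without normalization) and a normalized signal, CPM after TMM scaling, made by the authors per the file's name. The submitters' processing notes name bcl2fastq 2.17, Bowtie2 2.1.0, RSEM 1.2.15, edgeR and the rn6 build; roles, annotation and strand setting are not given in the sources used here, so reads shared between similar or overlapping genes could not be checked. Per the labels, libraries were strand-specific mRNA libraries from column-purified RNA.

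Expected counts were rounded (ties up), which matched the whole numbers behind the deposited signal at every gene (0 differences). filterByExpr by group (edgeR 4.0.16, R 4.3.3) kept 11791 genes. These were tested with edgeR's quasi-likelihood method (TMM scaling, 10 animals, no covariate, Benjamini-Hochberg adjustment). Log2 CPM used a prior count of 2. Alternatives were other scalings, filters and thresholds, DESeq2 1.42.0, limma 3.58.1, a replicate block, the ribosomal RNA share as a covariate and leaving out each animal. The scripts were tested on simulated data.

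Genes, lists and tests were chosen with earlier results of these data known. The named genes are the 8 genes, from each list up to 5 called genes with the smallest p and the gene whose log2 fold change is largest in size, and the 2 genes most like each of the 8 among genes with a mean log2 CPM of at least 1; 1 of these, for Dusp4, is not reported here. Outside that rule, Spry3, Junb, Egr3, Nr4a1, Nr4a3 and Npas4 were named after their values were seen. The labels call the samples separate animals, so the SD is between animals. Both groups number their animals 1 to 5, but the numbers name different animals. Counts carry no molecular identifiers.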

Additional observations from a re-analysis of the deposited data

Results flagged for a closer look

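Among 46 groups of 5 values checked (for each treatment, the 8 genes, the total count, the ribosomal RNA share and 13 summed marker lists), a value lay farther from its neighbour in 4 than Dixon's 95% limit for 5 samples allows (gap over range above 0.71), where chance alone gives about 2.3. Untreated replicate 4 had a Dusp6 level of 55.2 CPM, and the rest of its group 25.9 to 33.8 CPM (gap over range 0.728). The choroid plexus markers summed to 2446 CPM in untreated replicate 1 and to 4.91 to 22.1 CPM in the rest of its group (0.993). The 2 thalamus markers in the table, Tcf7l2 and Prkcd, summed to 47.0 CPM in untreated replicate 1 (18.9 to 26.1 CPM in the rest, 0.746), and to 40.1 CPM in RG2833 replicate 3 (16.0 to 21.5 CPM in the rest, 0.773).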

How the results depend on the processing

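All 8 genes kept the sign of their log2 fold change in every fit run except Spry4, whose -0.06 became 0.18 with the ribosomal share as covariate and lay between -0.152 and 0.029 (without untreated replicate 5) when 1 animal was left out. The count of 8 genes called, 0, was 1 with DESeq2's Wald test, 2 at an adjusted p under 0.1 and 0 to 2 when 1 animal was left out, with 2 (Dusp4 and Dusp6) without untreated replicate 4 and 1 (Dusp4) without untreated replicate 5. Calls over all genes, 599, numbered 1295 with DESeq2's Wald test, 1466 at an adjusted p under 0.1, 180 with the replicate block, 2 with the ribosomal share as covariate and 98 to 1556 when 1 animal was left out. Calls in the pathway lists, 10, numbered 22, 26, 7 and 0 under the same 4 settings and 3 to 23 when 1 animal was left out. The share of calls that were higher in RG2833 animals was 47.4% with TMM scaling and 38.3% with library totals only, 53.6% with limma-voom, 51.6% with limma trend, 38.9% with the replicate block and 32.7% to 52.1% when 1 animal was left out. Non-overlap of the groups, seen for 1 of the 8 genes, was seen for 1 to 2 when 1 animal was left out (Dusp6 as well without untreated replicate 4, Dusp4 as well without RG2833 replicate 2). The number of correlated pairs past adjustment, 0, was 0 to 1 when 1 animal was left out, with 1 without untreated replicate 1, and the relations with marker lists and with immediate-early genes, which were chosen after seeing the data, numbered 0 with all animals and with each animal left out. The cause of these shifts was not tested. The remaining scalings, filters and limma fits moved no count by more than 1.5 times. The same-numbered animals had correlations of their deviations from -0.319 to 0.151, so the numbers did not pair them, and with the replicate block 0 of the 8 genes were called. A fit on whole reads taken back from the deposited signal was not run, since those equal the counts used. At this depth the lowest count behind any of the 8 genes was 46.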
